A study of Bos taurus with 28 samples.

Results

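Positive acute phase proteins are plasma proteins that the liver secretes in larger amounts during infection, injury or inflammation. Cytokines such as interleukin 6 and interleukin 1 reach the hepatocyte and activate STAT3, NF-kB and C/EBP factors at these genes. In cattle, haptoglobin and serum amyloid A are the members that veterinarians follow most often as markers of inflammation. The genes listed were 10, namely HP, SAA3, ORM1, LBP, ITIH3, ITIH4, CP, HAMP, HPX and CRP, and every probe set, the array's unit for a transcript, was taken whose only annotated symbol was one of them. Of the 24016 probe sets other than controls, 12 probe sets of 9 genes were found, among 9155 genes that the array annotation names. CP had 3, CRP had 2, and 7 genes had 1 each. HAMP, which encodes the iron hormone hepcidin, had no probe set under that symbol and was not analysed here.

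Liver was biopsied after 14 days of treatment in Holstein cows that were ovariectomized and non-lactating, and there were 4 groups of 7 arrays. E2T cows carried an ear implant of estradiol, P4T cows carried progesterone inserts, E2P4T cows carried both, and CO cows received no steroid hormone. Ovariectomy was common to all groups, so CO was a state without ovarian hormones. The study's methods place the inserts in the vagina, whereas the labels call the exposure of P4T intradermal. In the methods each cow passed through several treatments in a Latin square, but neither the cow nor the period of an array is given in the labels, so arrays of different groups were treated as independent here. The measure was the MAS 5.0 signal of the bovine GeneChip, an intensity scaled by the authors to a common trimmed mean, and all values below are log2 signals unless stated. Levels are compared between groups within a probe set, never between probe sets.

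The array of E2P4T replicate 5 stood apart. Over 19 hepatocyte marker genes its mean log2 signal was 9.98, against 15.10 to 15.71 on the other 27 arrays, and 18 of the 19 genes were lowest on it. Over 13 kidney genes its mean was 11.24, against 5.04 to 7.85 elsewhere, and 12 of the 13 were highest on it. FXYD2, a subunit of the renal sodium pump, reached 15.92 there and 4.30 to 8.98 elsewhere, and CDH16, a cadherin of kidney tubules, reached 14.42 there and 3.95 to 8.75 elsewhere. The mean of the hepatocyte markers on this array was thus far below that of any other array, and the mean of the kidney genes far above. The comparisons of the members in E2P4T are given with and without it. The spike controls, RNAs added to each hybridisation, ranged between 12.95 and 18.27 and were highest in their group on E2T replicate 3, P4T replicate 4, E2P4T replicate 5 and CO replicate 3. The study set aside an outlying array of P4T and another of E2P4T. The numbers of arrays it went on with match those here for P4T and E2P4T, but not for CO and E2T. Whether the arrays it set aside are among these 28 is not known.

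**Figure D1:**
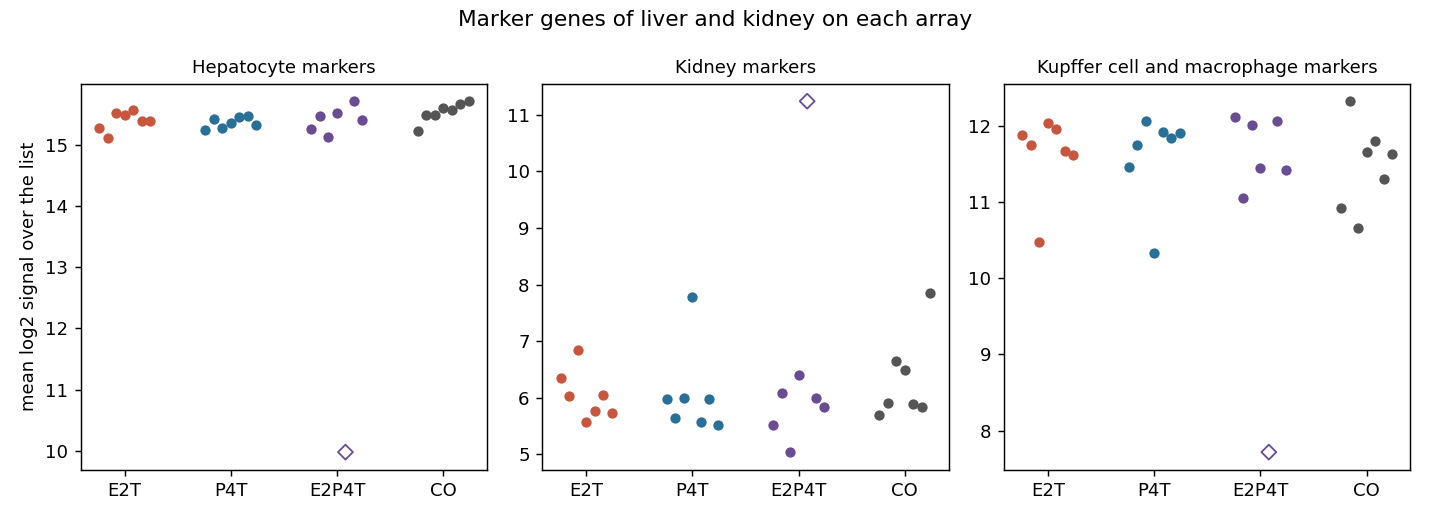
Mean log2 signal of hepatocyte, kidney and Kupffer cell marker genes on each array (y axis), by group (x axis), with 1 point per array and an open diamond for E2P4T replicate 5. That array lies at 9.98 for hepatocyte markers and at 11.24 for kidney markers, outside the range of the other 27 arrays in both.

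All but 3 of the 12 probe sets had their lowest E2P4T value on replicate 5 by a wide gap, the exceptions being HP, the dimmest probe set of CP and the dimmer one of CRP. ORM1 was 6.36 on that array and 15.54 to 16.92 on the other 6 arrays of E2P4T. CRP at its brighter probe set was 5.79 there and 15.68 to 16.43 on the others. HPX was 10.23 there, with 15.56 to 16.49 on the others. HP was 8.92 on that array, within the 8.87 to 16.61 of the others. In bulk tissue, fewer cells of a type and less RNA per cell cannot be told apart. On this array the low members came with a mean of kidney genes far above that of every other array. Its tissue of origin was not tested.

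**Figure D2:**
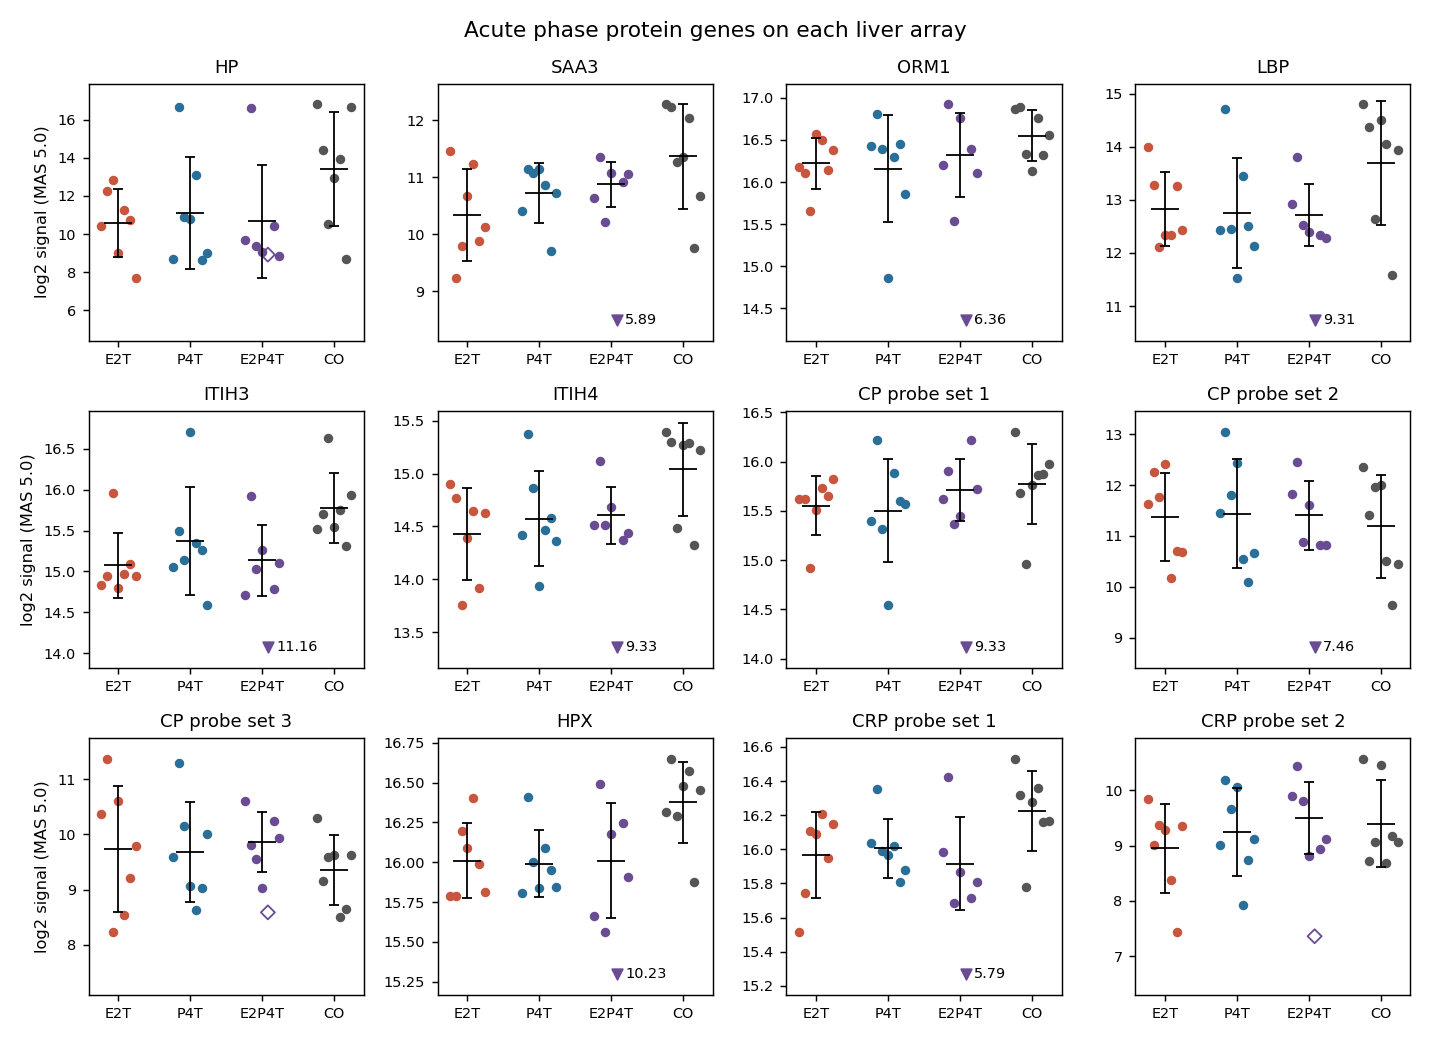
Log2 signal (y axis) of the 12 probe sets on each array, by group (x axis), with bars at the mean ± SD over the arrays without E2P4T replicate 5. E2P4T replicate 5 is an open diamond, or a triangle at the lower edge with its value printed where it lies off the axis, as for ORM1 at 6.36 and CRP probe set 1 at 5.79.

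HP encodes haptoglobin, which binds free haemoglobin. It varied more among arrays than any other member. In E2T, HP was 10.45, 12.25, 12.81, 8.99, 11.24, 10.74 and 7.69 on replicates 1 to 7. In P4T it was 8.70, 16.66, 10.88, 10.80, 13.12, 8.62 and 9.0, and in E2P4T it was 9.68, 16.61, 9.38, 9.07, 8.92, 10.40 and 8.87. In CO it was 16.79, 14.40, 10.52, 12.92, 13.91, 8.71 and 16.65. The groups overlapped, since CO held an array as low as many treated ones, and P4T and E2P4T each held 1 array just below the highest of CO. Above a log2 signal of 12, a level chosen after the values were seen, there were 2 arrays of E2T, 2 of P4T and 1 of E2P4T, against 5 of CO, each out of 7.

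HP averaged 10.60 ± 1.78 in E2T, 11.11 ± 2.93 in P4T and 10.42 ± 2.78 in E2P4T, against 13.41 ± 3.00 in CO (SD, n = 7 each). These means correspond to log2 fold changes of -2.82, -2.30 and -3.0 (SE 1.25), or signals 7.06-fold, 4.94-fold and 7.98-fold lower than in CO. None passed the limma test after adjustment over all 18775 probe sets, with adjusted p of 0.873, 1.00 and 0.933. Without E2P4T replicate 5 the last of these was -2.75 (SE 1.30, adjusted p 0.715). The SD of HP within groups, 2.70 without that array, lay at the 99.97th percentile of all probe sets, whose median was 0.64. The fold change of E2T ranged between -3.60 without CO replicate 6 and -2.26 without CO replicate 1. That of P4T was -3.23 without P4T replicate 2 and -1.74 without CO replicate 1, and that of E2P4T reached -4.03 without E2P4T replicate 2, and HP was high on each of these arrays of P4T and E2P4T.

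SAA3 encodes a serum amyloid A of the acute phase and had smaller differences from CO than HP, with far less spread. Its lowest, median and highest values were 9.23, 10.13 and 11.46 in E2T, and 9.70, 10.86 and 11.15 in P4T. They were 5.89, 10.92 and 11.35 in E2P4T, and 9.76, 11.35 and 12.27 in CO. Of the CO arrays, 3 lay above the highest of E2T, 5 above the highest of P4T and 4 above the highest of E2P4T, and the ranges still overlapped in the lower part. The log2 fold changes were -1.03, -0.65 and -1.21 (SE 0.56). Without E2P4T replicate 5 the last was -0.49 (SE 0.36), so that much of the -1.21 rests on that array. The values in E2T and P4T were the same without it, with an SE of 0.34. SAA3 belongs to a family of near-identical copies, among them M-SAA3.2, and the probe set could take up signal from them.

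LBP encodes the lipopolysaccharide binding protein, which carries bacterial endotoxin to CD14. Its lowest, median and highest values were 12.12, 12.44 and 13.99 in E2T and 11.53, 12.45 and 14.71 in P4T. In E2P4T they were 9.31, 12.40 and 13.82, and in CO 11.58, 14.04 and 14.80. Of the CO arrays, 5 lay above the highest array of E2P4T and 4 above the highest of E2T, but CO replicate 6, at 11.58, was lower than all treated arrays other than P4T replicate 4 and E2P4T replicate 5. The log2 fold changes were -0.87, -0.95 and -1.47 (SE 0.53), and the last was -0.99 (SE 0.45) without E2P4T replicate 5. Without that array the SE of the values in E2T and P4T was 0.43. On CO replicate 6, HP and SAA3 were also at their lowest of the CO group, 8.71 and 9.76.

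ITIH3 and ITIH4 encode heavy chains of the inter-alpha-trypsin inhibitor family, of which that of ITIH3 is linked to hyaluronan, and ITIH4 is an acute phase protein in cattle and pigs. They are neighbours in the RefSeq annotation, with ITIH1 next to ITIH3. ITIH3 had a lowest, median and highest value of 14.80, 14.95 and 15.96 in E2T, 14.59, 15.26 and 16.71 in P4T, 11.16, 15.03 and 15.92 in E2P4T, and 15.31, 15.71 and 16.63 in CO. On 6 of 7 E2T arrays, 4 of 7 P4T arrays and 6 of 7 E2P4T arrays ITIH3 was below the lowest CO array. The exception in E2T was replicate 3, with 15.96. The log2 fold changes of ITIH3 were -0.70, -0.40 and -1.20 (SE 0.45), with -0.63 (SE 0.27) for E2P4T without replicate 5. Without that array the SE of the values in E2T and P4T was 0.26.

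ITIH4 had a lowest, median and highest value of 13.76, 14.63 and 14.90 in E2T, 13.94, 14.47 and 15.37 in P4T, 9.33, 14.51 and 15.11 in E2P4T, and 14.33, 15.27 and 15.40 in CO. Of the 7 CO arrays, 5 were above every E2T array and above every E2P4T array, while P4T replicate 2 at 15.37 reached the upper end of CO. The log2 fold changes of ITIH4 were -0.61, -0.47 and -1.19 (SE 0.52), with -0.44 (SE 0.23) for E2P4T without replicate 5. Without that array the SE of the values in E2T and P4T was 0.22.

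At their brightest probe sets, ORM1, HPX, CRP and CP had an SD within groups below the median of all probe sets once E2P4T replicate 5 was set aside. Over all arrays their log2 fold changes in E2P4T were -1.65, -1.19, -1.76 and -0.97, against -0.23, -0.37, -0.31 and -0.06 without that array. ORM1 encodes the lipid-binding alpha-1 acid glycoprotein, and without that array it averaged 16.22 ± 0.31 in E2T, 16.16 ± 0.64 in P4T and 16.32 ± 0.50 in E2P4T, against 16.55 ± 0.30 in CO (SD, n = 7, 7, 6 and 7). HPX encodes hemopexin, which binds free haem. HPX averaged 16.01 ± 0.24 in E2T, 15.99 ± 0.21 in P4T and 16.01 ± 0.36 in E2P4T, against 16.38 ± 0.26 in CO, with the same numbers of arrays. The log2 fold changes of ORM1 were -0.33 in E2T and -0.39 in P4T. The log2 fold changes of HPX without E2P4T replicate 5 were -0.37, -0.39 and -0.37. Of the CO arrays, CO replicate 6 was the lowest at 15.88, and the others lay between 16.29 and 16.65.

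CRP encodes C-reactive protein, a pentraxin that binds damaged membranes and bacteria and is a weak acute phase reactant in cattle. Its brighter probe set averaged 15.97 ± 0.25 in E2T, 16.01 ± 0.17 in P4T and 15.92 ± 0.27 in E2P4T, against 16.23 ± 0.23 in CO (SD, n = 7, 7, 6 and 7, without E2P4T replicate 5). The SD of CRP within groups lay at the 1.56th percentile of all probe sets and that of HPX at the 3.58th, at the other end of the scale from HP. These percentiles are over probe sets of every signal level, and the part of brightness in them was not tested. The other probe set of CRP averaged 8.95 ± 0.81 in E2T, 9.24 ± 0.80 in P4T and 9.50 ± 0.65 in E2P4T, against 9.39 ± 0.79 in CO, with log2 fold changes of -0.44, -0.15 and 0.11, and the last was -0.20 over all arrays.

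CP encodes ceruloplasmin, the copper-carrying ferroxidase of plasma, and its 3 probe sets did not give one direction. The brightest averaged 15.55 ± 0.29 in E2T, 15.50 ± 0.52 in P4T and 15.71 ± 0.32 in E2P4T, against 15.77 ± 0.41 in CO (SD), and had fold changes of -0.22, -0.27 and -0.06 without E2P4T replicate 5. The second had 0.19, 0.25 and 0.21, and the third had 0.38, 0.33 and 0.52, while over all arrays their values in E2P4T were -0.35 and 0.33. The SD within groups was 0.93 at the second and 0.85 at the third, above the median of all probe sets. None of the 3 passed the test in any contrast, and the group-centred signals of the brightest correlated with those of the second at -0.17 and with those of the third at 0.35 over 27 arrays. No statement on the direction of CP can be made from these probe sets.

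**Figure D3:**
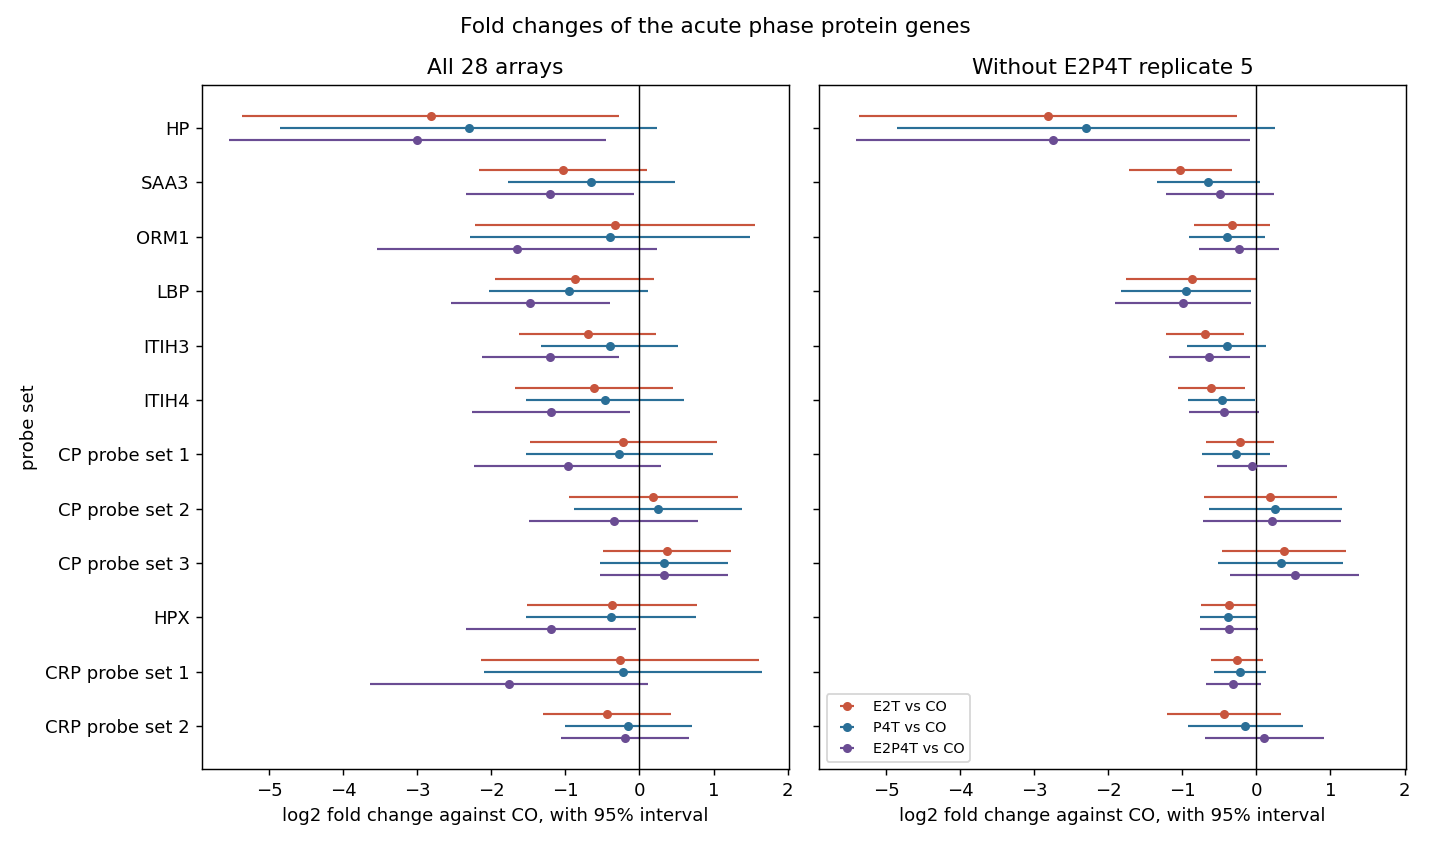
Log2 fold changes against CO (x axis) of the 12 probe sets (y axis) in E2T, P4T and E2P4T, with 95% intervals from the limma fit, over all 28 arrays and without E2P4T replicate 5. Points lie left of 0 for HP, SAA3, ORM1, LBP, ITIH3, ITIH4 and HPX in all 3 treatments, and HP has both the lowest points and the widest intervals.

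Counted over all 28 arrays, 10, 10 and 11 of the 12 probe sets had a log2 fold change below 0 in E2T, P4T and E2P4T, where the same was true of 59.8%, 53.7% and 51.7% of all probe sets tested. Without E2P4T replicate 5 the last count was 9 of 12, against 58.5% of all probe sets. Represented by the brightest probe set of each gene, all 9 genes were below 0 in each treatment with and without that array. The share of all genes so represented is not given here. Without that array the mean of the hepatocyte markers was also below CO, at 15.39, 15.36 and 15.41 against 15.53. The dimmer probe sets of CP were above 0 in each treatment without that array, as was that of CRP in E2P4T. Every treated mean lay below CO for 10 of the 12 probe sets, against 34.6% of all, and without that array for 9 of 12, against 39.7%. The medians of the 9 genes without it were -0.61, -0.40 and -0.44, while the medians of all probe sets were -0.10, -0.03 and -0.09. The treatments share the CO arrays, so these 3 counts are not separate evidence of a direction. Nor are the 9 genes, which were measured on the same arrays.

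No member passed an adjusted p of 0.05 in any contrast, and over all 28 arrays neither did any of the 18775 probe sets (limma, 0% called). At an unadjusted p under 0.05 there were 1021, 522 and 922 probe sets in E2T, P4T and E2P4T. Of the 12 members, 1 was lower at that level in E2T (HP), 0 in P4T and 6 in E2P4T, against 3.98%, 1.84% and 2.74% of all probe sets lower at that level. Without E2P4T replicate 5 the counts were 4 (HP, SAA3, ITIH3 and ITIH4), 3 (LBP, ITIH4 and HPX) and 3 (HP, LBP and ITIH3), against 5.69%, 2.61% and 4.99% of all probe sets. The lowest adjusted p of a member was then 0.615 in E2T, 0.999 in P4T and 0.715 in E2P4T. In the opposite direction 0 members passed that level in any of the 3 treatments, against 1.45%, 0.943% and 2.17% of all probe sets over all arrays and 2.14%, 1.37% and 1.9% without that array. Without both P4T replicate 4 and E2P4T replicate 5, 6, 1 and 3 members were lower at that level in E2T, P4T and E2P4T, against 7.2%, 5.81% and 6.51% of all probe sets.

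A contrast of the mean of the 3 treatments with CO was added after these values were seen. Over all arrays its fold changes were -2.71 for HP (SE 1.02), -0.96 for SAA3 (SE 0.45), -1.10 for LBP (SE 0.43) and -0.77 for ITIH3 (SE 0.37), and the lowest adjusted p of a member was 0.876. At an unadjusted p under 0.05, 4 of the 12 probe sets were lower, against 3.19% of all. Without E2P4T replicate 5, 6 of the 12 probe sets were lower at an unadjusted p under 0.05, against 6.01% of all probe sets. They were those of HP, SAA3, LBP, ITIH3, ITIH4 and HPX, with fold changes of -2.62, -0.72, -0.94, -0.58, -0.50 and -0.37, and the lowest adjusted p was 0.498.

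Between E2T and P4T no member differed beyond the spread. The log2 difference of E2T minus P4T was -0.52 for HP (SE 1.25), -0.38 for SAA3 (SE 0.56) and -0.29 for ITIH3 (SE 0.45), and the other members lay between -0.29 and 0.08. Without E2P4T replicate 5 the SE was 0.34 for SAA3 and 0.26 for ITIH3. Of the 12 probe sets 7 were below 0, against 57.7% of all, and 0 passed at an unadjusted p of 0.05, where 1.08% of all probe sets were lower and 0.362% higher. The 95% interval of HP, between -3.06 and 2.03, leaves differences of several log2 units in either direction unresolved. Over both levels of progesterone, the estradiol effect was below 0 for 11 of 12 probe sets, against 56.2% of all, and for 10 without E2P4T replicate 5, against 60.2%. The progesterone effect was below 0 for 10, against 46%, and for 9 without that array, against 51.6%. For HP these effects were -1.76 and -1.24 (SE 0.88), and without that array -1.63 and -1.12 (SE 0.90). The interaction of estradiol and progesterone was below 0 for 8 of the 12 probe sets over all arrays, against 41.6% of all, and for 2 of 12 without E2P4T replicate 5, against 45.5%. SAA3 then had an interaction of 1.18 (SE 0.49, unadjusted p 0.0229, adjusted p 1.00 by limma), the 1 member higher at that level, against 1.44% of all probe sets. The interaction of HP was 2.13 with it and 2.37 without it, and its adjusted p was 0.999 and 1.00.

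Across arrays of the same group, the members moved together in part. In signals centred on their group means over the 27 arrays without E2P4T replicate 5, given as a description, 32 of the 36 pairs among the 9 genes had a Pearson correlation above 0, with a median of 0.40 and a range between -0.58 and 0.79. Arrays share their scaling, and this correlation carries no test. LBP and ITIH4 had the highest, 0.79. HP correlated with LBP at 0.74, with HPX at 0.65, with CRP at 0.56 and with ITIH4 at 0.56. HP and SAA3 had 0.37. The arrays with the highest HP were CO replicates 1 and 7, P4T replicate 2 and E2P4T replicate 2, and on these 4 LBP was between 13.82 and 14.80, while SAA3 was 10.67 on CO replicate 7.

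**Figure D4:**
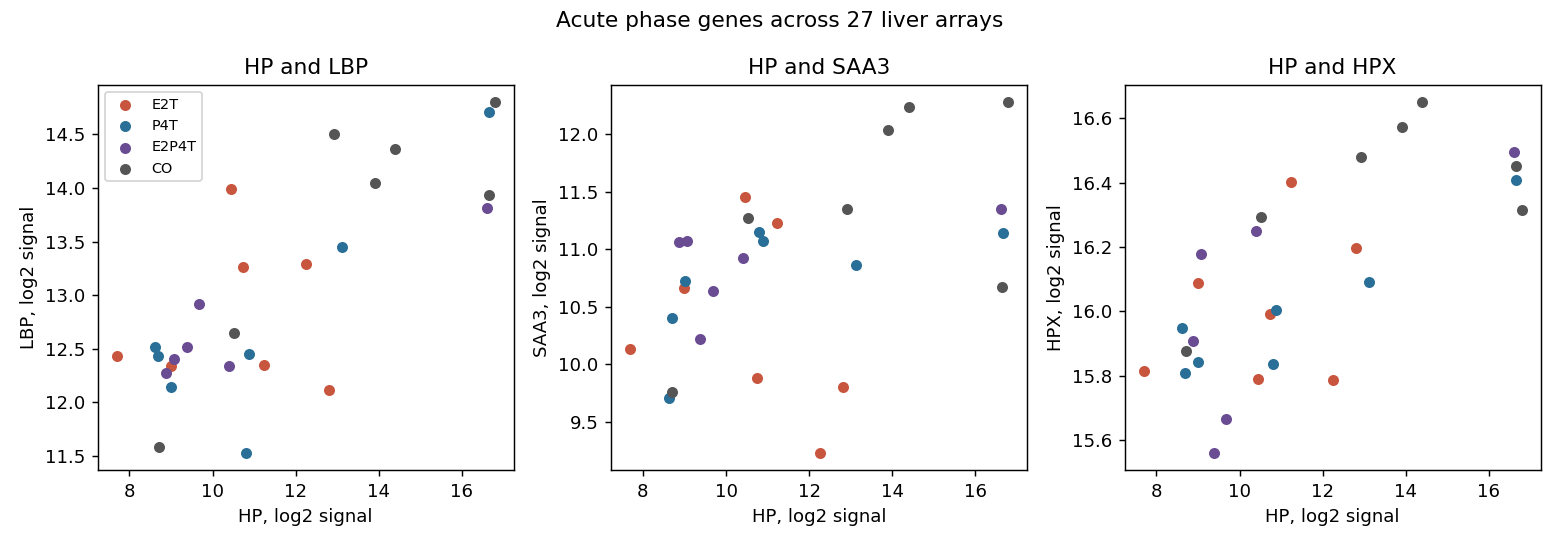
Log2 signal of HP (x axis) against that of LBP, SAA3 and HPX (y axes), with 1 point per array on 27 arrays without E2P4T replicate 5, coloured by group. Arrays with HP above 16 all have LBP of at least 13.82, and SAA3 on them spans 10.67 to 12.27.

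By the same measure, LBP stood at rank 3 of the 18774 other probe sets in its likeness to HP, HPX at rank 17, CRP at rank 63 and ITIH4 at rank 75, while SAA3 stood at rank 784. Over all 28 arrays LBP stood at rank 6, ITIH4 at 708, SAA3 at 745, HPX at 1332 and CRP at 2925, so that the places of HPX, CRP and ITIH4 rest on leaving out E2P4T replicate 5. The 5 other genes most like HP were CYP11A1 (0.74), which encodes the enzyme that cleaves the side chain of cholesterol in steroid synthesis, MAP2K6 (0.74), a kinase upstream of p38, C5H12orf75 (0.72), MAPK1IP1L (0.72) and LOC518526 (0.69). For SAA3 they were TLR9 (0.75), a receptor of unmethylated DNA, SAA4 (0.71), UBE2L6 (0.68), an enzyme of ISG15 conjugation, CHIA (0.67), an acidic chitinase, and INTS7 (0.67). Over all 28 arrays TLR9 stood at rank 2711 for SAA3 and LOC518526 at rank 977 for HP, and these places rest on the same choice.

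ITIH3 and CP moved with the hybridisation spikes and with markers of other cells, but this depended on the arrays of highest spike signal. Over 27 arrays the group-centred signal of ITIH3 correlated with the mean of the hybridisation spikes at 0.86, and that of CP at -0.58. ITIH3 was highest in its group on E2T replicate 3 (15.96), P4T replicate 4 (16.71) and CO replicate 3 (16.63), which are the arrays of highest spike signal there, at 15.42, 17.31 and 16.26. CP was lowest on the same arrays, with 14.92, 14.54 and 14.96. The Kupffer cell markers had their lowest means of the 27 arrays on the same arrays, at 10.47, 10.33 and 10.66. Over 27 arrays ITIH3 correlated with the Kupffer cell markers at -0.77 and with the kidney markers at 0.68, and CP at 0.51 and -0.48. Without these arrays the correlations were -0.33 and 0.37 for ITIH3, and -0.29 and -1.8e-05 for CP. Those with the spikes were then 0.47 for ITIH3 and 0.47 for CP, so that CP changed sign. Without the array of highest spike signal in each group, a choice made after seeing the data, the correlation of ITIH3 and CP was 0.21, against -0.58 with them. ITIH3 and HP then correlated at 0.69, against 0.33.

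**Figure D5:**
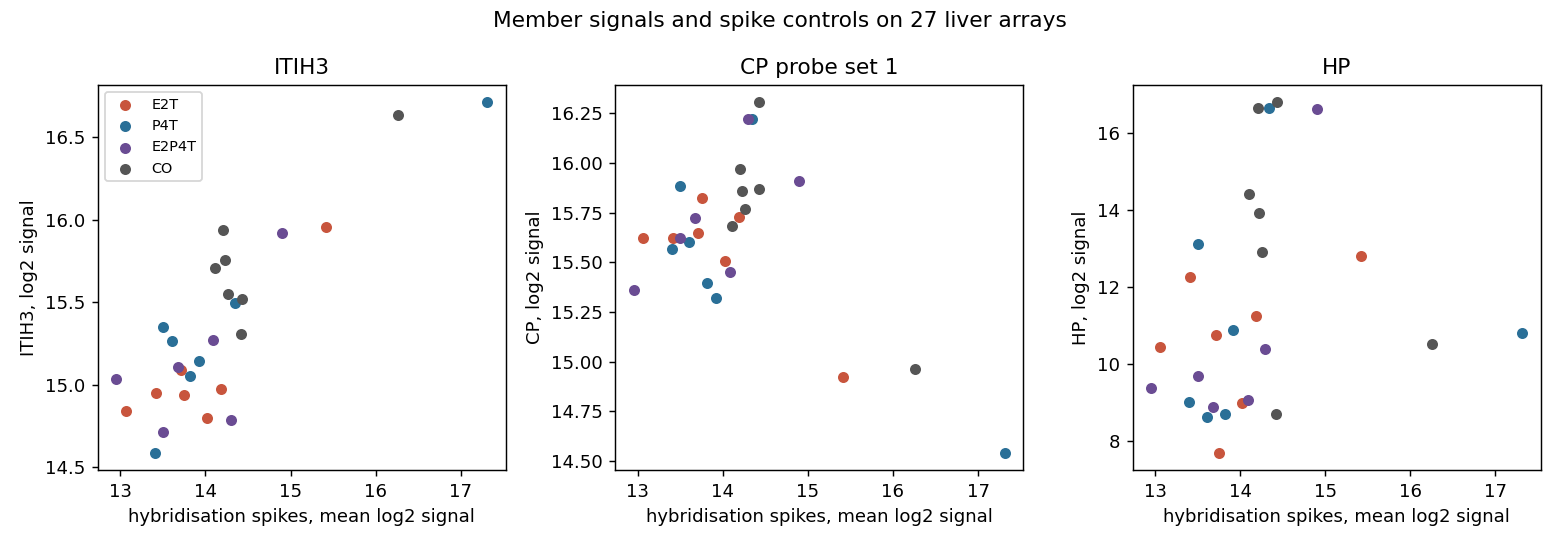
Mean log2 signal of the hybridisation spikes (x axis) against the log2 signal of ITIH3, CP probe set 1 and HP (y axes), 1 point per array on 27 arrays, coloured by group. ITIH3 is highest and CP lowest on the 3 arrays with spikes above 15, and HP on these arrays lies between 10.52 and 12.81.

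The spike signal was also lower on most treated arrays than on any CO array. It averaged 13.94 ± 0.75 in E2T, 14.27 ± 1.38 in P4T and 13.90 ± 0.68 in E2P4T without replicate 5, against 14.56 ± 0.76 in CO (SD). Below the lowest CO array (14.11) were 5 of 7 arrays of E2T, 5 of 7 of P4T and 4 of 6 of E2P4T. Among the 24 arrays without the highest of each group, the group-centred signals of ORM1, HPX and CRP correlated with the spikes at 0.76, 0.71 and 0.74. Those of HP, LBP and SAA3 did so at 0.41, 0.09 and 0.24. Over 27 arrays the correlations were -0.38, 0.23 and 0.13 for ORM1, HPX and CRP, and 0.12, -0.35 and 0.12 for HP, LBP and SAA3. They thus depended on which arrays were kept. The part of the spike signal and of these cell markers in the differences of ITIH3, CP, ORM1, HPX and CRP from CO was not tested. On these 24 arrays the spikes still averaged 13.69 in E2T, 13.76 in P4T and 13.90 in E2P4T, against 14.28 in CO. Leaving out the highest array of each group thus did not make the groups equal in spike signal. On the same 24 arrays the fold changes of LBP in E2T, P4T and E2P4T were -0.93, -0.92 and -1.16 and those of ITIH3 were -0.70, -0.48 and -0.49. In E2T, P4T and E2P4T, 7, 4 and 6 of the 12 members were lower at an unadjusted p under 0.05, against 9.35%, 4.53% and 5.21% of all probe sets, and the lowest adjusted p was 0.188, for ITIH3 in E2T.

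Other genes of the acute phase were read from lists, each gene at its brightest probe set. Of 29 further positive acute phase genes, 15 were tested and 0 passed the adjusted threshold in either direction. Without E2P4T replicate 5, 11 of the 15 were below 0 in each treatment, where 59.8%, 53.7% and 58.5% of all probe sets were, with medians of -0.39, -0.24 and -0.36. IL1RN, the interleukin 1 receptor antagonist, had -0.82, -0.59 and -0.84, SERPINA3-7, a serine protease inhibitor, had -0.51, -0.64 and -0.51, and MT2A, a metallothionein, had -0.78, -0.57 and -0.81. Of the 12 negative acute phase genes, whose plasma proteins fall in inflammation, 12 were tested and 0 passed. Their medians were -0.09, -0.14 and -0.06. APOA1, the main protein of HDL, had -0.08, -0.40 and -0.42, and ALB, albumin, had -0.30, -0.34 and -0.33. TF, transferrin, had -0.41, -0.18 and -0.46. Over all arrays the E2P4T values of these 6 genes lay between -1.38 and -0.95.

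Of 33 genes for cytokine receptors and transcription factors of the response, 23 were tested and 0 passed, with medians of -0.01, 0.00 and -0.02. NFKB2, a subunit of NF-kB, had -1.50, -0.88 and -0.95 without E2P4T replicate 5 (adjusted p 0.615, 0.999 and 0.715). NR3C1, the glucocorticoid receptor, had 0.19, 0.34 and 0.44. MYD88, an adaptor of interleukin 1 and Toll-like receptors, had 0.14, 0.03 and 0.32. The partners of the inter-alpha-trypsin inhibitor chains gave 3 tested of 5, with AMBP, the precursor of its light chain bikunin, at -0.34, -0.24 and -0.24, ITIH1 at -0.22, -0.24 and -0.16, and ITIH2 at 0.02, -0.08 and 0.12. Of 22 genes of hepcidin control, 8 were tested and 0 passed. SMAD4, the shared SMAD of BMP signalling, had 0.53, 0.33 and 0.53, and ACVR2A, an activin receptor, had -0.48, -1.63 and -0.56 with an SE above 1. TFR2, a transferrin receptor of hepatocytes, had -0.19, -0.01 and -0.11. The clearance receptors ASGR1 and ASGR2, which take up desialylated glycoproteins, gave 2 tested of 4, and ASGR1 was at -0.03, -0.07 and 0.00, and ASGR2 at 0.07, -0.06 and -0.12.

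Markers of the cell types of a biopsy were read on the same arrays. The log2 signals of 7 Kupffer cell and macrophage genes averaged 11.62 ± 0.53 in E2T, 11.61 ± 0.59 in P4T and 11.68 ± 0.44 in E2P4T, against 11.47 ± 0.56 in CO (SD, without E2P4T replicate 5). Those of 6 neutrophil genes averaged 7.21 ± 0.42 in E2T, 7.44 ± 0.39 in P4T and 6.77 ± 0.63 in E2P4T, against 7.68 ± 0.95 in CO, and 5, 4 and 5 of these 6 genes had a fold change below 0, against the same shares of all probe sets, 59.8%, 53.7% and 58.5% (ranges 6.43 to 7.64, 6.88 to 7.93, 6.13 to 7.68 and 5.84 to 8.63). The group-centred mean of the neutrophil genes correlated with HP at 0.40, with SAA3 at 0.43 and with LBP at 0.37. Their part in the values of the acute phase genes was not tested. Hepatocyte markers averaged 15.39 ± 0.16 in E2T, 15.36 ± 0.09 in P4T and 15.41 ± 0.20 in E2P4T, against 15.53 ± 0.16 in CO. Their group-centred mean correlated with HPX at 0.53, with LBP at -0.25 and with HP at -0.01, and with the other genes between -0.20 and 0.17. The part of the hepatocyte markers in the values of HPX was not tested.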

How the data were processed

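Bovine GeneChip arrays of 28 biopsies labelled as liver were grouped from their labels, 7 per group. The authors deposited MAS 5.0 signal intensities on a linear scale, scaled to a common trimmed mean (1000 over the middle 96% of values when checked). Detection calls were not used here, scanner saturation was not tested, and precision is limited by how many arrays there are.

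Analysis used log2 of these values as they stood. Of 24016 probe sets other than controls, 18775 had a maximum of at least 350 on any array and were tested with limma 3.58.1 in R 4.3.3 (eBayes with a trend), adjusted by Benjamini and Hochberg over all of them at 0.05. On simulated data for E2T and CO, 35% of 100 probe sets changed by 1 log2 unit and 69% of 100 changed by 2 were recovered over the 18775 tested. The simulated noise was independent between arrays, with SDs taken without E2P4T replicate 5. The median SD within groups was 0.73 over all arrays and 0.64 without that array. For ORM1 it was 1.93 and 0.46, and for the brighter probe set of CRP 1.93 and 0.23. These shares can therefore overstate recovery in the fit over all arrays, above all for such members. Symbols came from the array annotation (13292 probe sets with 1 symbol, 86 with several, 10638 with none). Named genes were every member probe set, from each list the 3 genes with the lowest F test p over all 28 arrays, and the 5 genes most like HP and SAA3 by correlation. Without E2P4T replicate 5 the F test would have named C4BPA, SERPINA6, IL1RAP and ID1 in place of MT2A, TF, MYD88 and TFR2.

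Members and lists were chosen with earlier results of these data known. Alternatives were quantile normalization, median centring, other filters, log2 of the signal plus 50, no moderation, a replicate block, array weights, only the groups compared, leaving out each array or P4T replicate 4 with E2P4T replicate 5, and the arrays numbered 1 to 4 and 5 to 7. Added after seeing the data were the contrast of all treatments with CO, the array of highest spike signal left out per group, and E2P4T replicate 5 left out with the block, with quantile normalization and within arrays 5 to 7. The labels call the arrays of a group biological replications but name no cow, so p-values measure only the spread between these arrays. No 2 arrays correlated above 0.924.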

Additional observations from a re-analysis of the deposited data

Results flagged for a closer look

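Among the 48 sets of 7 arrays formed by 12 probe sets and 4 groups, 14 held an array whose gap to its neighbour was a large share of the range of the group, and chance flags about 1 in 20. Of these, 9 concerned E2P4T replicate 5, as the lowest array. The gap over the range was 0.793 for SAA3, 0.869 for ORM1, 0.658 for LBP, 0.746 for ITIH3, 0.872 for ITIH4 and 0.851 for HPX. For CP it was 0.875 at the brightest and 0.674 at the second probe set, and for CRP 0.930 at the brighter one.

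The other 5 lay on 4 arrays. HP on E2P4T replicate 2 was 16.61 with its neighbour at 10.40 (0.802). On E2T replicate 3, ITIH3 was highest at 15.96 with its neighbour at 15.09 (0.750), and CP was lowest at 14.92 with its neighbour at 15.50 (0.645). ITIH3 on P4T replicate 4 was 16.71 with its neighbour at 15.49 (0.573). CRP on P4T replicate 2 was 16.35 with its neighbour at 16.04 (0.582), and on that array HP was 16.66.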

How the results depend on the processing

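Of 4272 values of the members under 45 alternatives, 11 moved by more than the SD within groups over all arrays, an SD that E2P4T replicate 5 itself widens. Against the SD without that array, 232 moved by as much or more, 149 of them where that array was left out, 51 within arrays of a range of numbers and 32 under other alternatives. No adjusted call was made for a member under any of them. Most of the alternatives refit nearly the same arrays, so the count that follows adds no separate evidence of a direction. At the brightest probe set of each gene, with the dimmer ones of CP and CRP not counted, 1237 of 1242 fold changes against CO were below 0. The exceptions were CP at 0.05 and CRP at 0.01 in E2T under median centring, CP at 0.05 in E2P4T under quantile normalization without E2P4T replicate 5, and SAA3 at 0.17 and CP at 0.07 in E2P4T within arrays 5 to 7 without it. The 1242 values include CP, whose 3 probe sets did not give one direction. Over all 28 arrays 59.8%, 53.7% and 51.7% of all probe sets were below 0 in E2T, P4T and E2P4T. The share of all probe sets under each alternative is not given here. Median centring moved the median of all probe sets in E2T to 0.17, with 8 of the 12 members below 0. Quantile normalization without E2P4T replicate 5 moved the median of the 12 members to -0.23, -0.15 and -0.17 in E2T, P4T and E2P4T, with all probe sets at 0.03, 0.02 and 0.03.

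Over all probe sets 0 were called in each contrast except that array weights called 1 in E2T against P4T, the arrays numbered 5 to 7 without E2P4T replicate 5 called 1 in E2P4T against CO, and leaving out the array of highest spike signal in each group called 1 in E2T against CO. These were a probe set without a symbol (log2 difference -1.93), another without a symbol (-1.80) and MAPK12 (-1.36), chosen after their values were seen, and the cause was not tested. Leaving out each array in turn gave 0 calls each time. The replicate block gave 0 calls. With the block and without E2P4T replicate 5, the lowest adjusted p of a member against CO was 0.464 by limma. Of 39 pairs of arrays with the same number 14 correlated above 0.1 (median 0.05), against 26 of 234 pairs with different numbers (median -0.01), and 11 of 27 arrays correlated best with an array of their own number. The numbers may thus carry a partial pairing, but the labels give no source for one and not every pair deviated together, so the block was kept as an alternative.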
